A study of Mus musculus with 2 samples.

Results

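The heat shock proteins, the chaperonins and the DNAJ co-chaperones of the cell were read in mouse 5cc7 T cell blasts. The group was made by gene symbol: every probe set annotated to a single gene of the Hsp90, Hspa (Hsp70 and Hsp110), small heat shock Hspb, Hspd1, Hspe1, Hsph1, Dnaja, Dnajb, Dnajc and CCT families, with Tcp1. It held 196 of 45037 probe sets and 80 of 18193 named genes. The rule itself used gene symbols and no measured values, but members and lists were chosen with earlier results of these data known. The genes Hsp90ab1 and Dnajc19 were not analysed here.

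The 5cc7 T cells carry a receptor for a peptide of moth cytochrome c and, per the labels, were stimulated in vitro with that peptide (MCC). Polyadenylated RNA of the blasts, harvested 5 days after stimulation, was labelled with biotin and read on 2 Affymetrix mouse 430 2.0 arrays, called set 1 and set 2. Both arrays belong to 1 group, with no resting, unstimulated or heat-shocked sample beside it, and age and strain are not stated in the labels. The labels name no separate cultures for the arrays, so their spread may be purely technical.

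Molecular chaperones hold unfolded or newly made proteins, let them fold and keep them from clumping. Hsp70 proteins bind short exposed stretches in cycles of ATP use. DNAJ proteins (Hsp40) deliver the substrate and start the cycle through their J domain, and nucleotide exchange factors such as the Hsp110 proteins end it. Hsp90 acts later, on signalling proteins such as kinases and steroid receptors, and the closed chambers of Hsp60 with Hsp10 in mitochondria and of CCT in the cytosol fold whole proteins, with actin and tubulin as the known clients of CCT. Some members are made at all times, others only under stress through heat shock factor 1, and several are known mainly from testis or muscle. An activated lymphocyte grows and divides quickly, which places a high demand on protein folding.

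Values are the deposited intensities, 1 per probe set and array. Because probes differ in how well they bind, the levels of different genes were not compared. To count as above background, a probe set had to exceed on both arrays the 95th percentile of the probe sets of a list of kidney, pancreas, eye and liver genes, which was 51.7 on set 1 and 55.0 on set 2. A gene was called when at least 1 of its probe sets was, and the probe set with the highest intensity gave its level. In a second list of genes of other organs 6 of 46 exceeded the bound. The myelin gene Mbp at 471.4 and 515.6 was the highest of them. The thyroid gene Tg at 444.8 and 418.3 and the pituitary gene Pomc at 107.3 and 117.8 were also among them. The kidney gene Kap of the first list read 127.4 and 129.6. A member near these values is therefore weakly set apart from a gene that is absent. All 11 measured T cell markers and all 5 of dividing cells were above background, as were 2 of 2 CD8, 4 of 5 B cell, 1 of 8 myeloid and 0 of 4 NK cell markers. Some of these lay well above the bound, with the B cell genes Ighm at 2580.6 and 2163 and Ms4a1 at 389.7 and 365.1. The CD8 gene Cd8b1 read 190.5 and 235.3. The B cell gene Pax5, at 54 and 53.7, was not called. The part of other cells in the chaperone signal was not tested.

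Of the 80 genes, 53 were above background on both arrays and 27 were not. Over all named genes the share above background was 47.9%, and over all probe sets it was 38.6%, against 109 of the group's 196 probe sets. The group had 2.45 probe sets a gene, against 1.92 over all named genes, which gives its genes more chances to be called. The group's probe sets had median intensities of 81.7 (set 1) and 82.9 (set 2), against 36.4 and 37.9 for all. The calls were uneven among the roles. Hsp90, Hsp110, Hsp60 with Hsp10, the organelle forms of Hsp70 and the nuclear and ribosomal DNAJC genes were called throughout, whereas most cytosolic Hsp70 and small heat shock genes were not. A list of 14 members known mainly from testis, muscle or another restricted site had 1 gene above background, and the other 66 members had 52. The called gene of that list was Dnajb13. On set 1 alone Dnajb8 joined it, for a count of 2, and with the bound from the second off-tissue list, 86.2 and 98.9, the count was 0. This list was drawn up with earlier results of these data known.

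**Figure D1:**
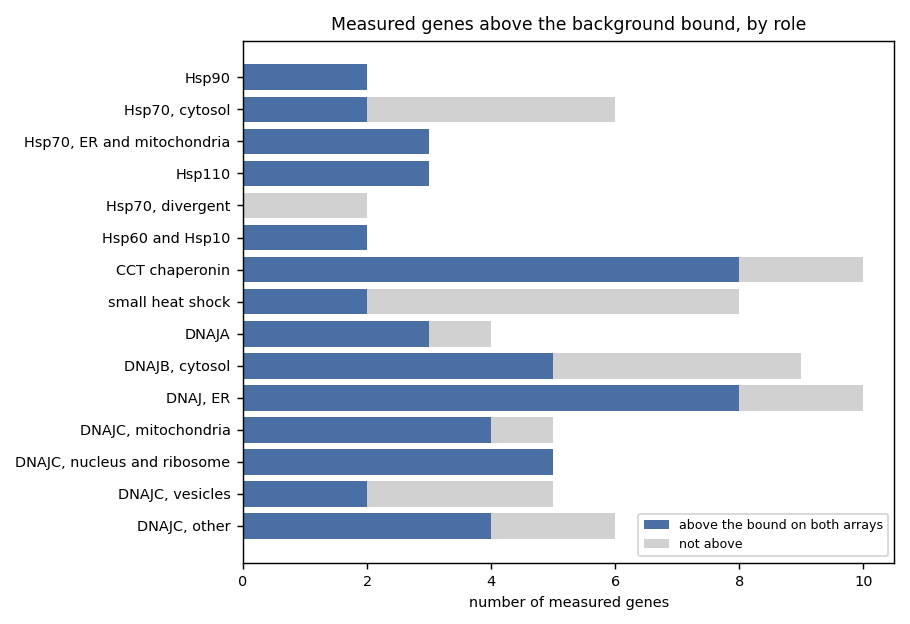
Number of measured genes of each role (horizontal axis, genes) above the background bound on both arrays (blue) or not (grey). The 10 measured CCT genes include 8 above the bound and the 6 cytosolic Hsp70 genes include 2. The 8 genes shown as small heat shock, grouped by an Hspb symbol, include 2, among them the ciliary transport gene Hspb11.

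Both measured Hsp90 genes were above background. Hsp90aa1, the stress-inducible cytosolic Hsp90, read 1772.4 on set 1 and 1875.7 on set 2 (1824 ± 73.0, SD, n = 2). Of its 5 probe sets, 3 were above the bound and the other 2 were not. Hsp90b1, known as GRP94, is the form of the endoplasmic reticulum (ER) and handles integrins and Toll-like receptors. It read 831.6 and 1164.5 (998 ± 235, SD, n = 2), a centred log2 difference of 0.46 between the arrays. Its other probe set read 852.3 and 854, so the difference was not shared.

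Among the cytosolic Hsp70 genes, the constitutive form was called and the stress-inducible forms were not. Hspa8, known as Hsc70, the constitutive Hsp70 that also strips clathrin from vesicles, read 5604.3 and 5538.4 (5571 ± 46.6, SD, n = 2). This reporting probe set ends in _x_at, which marks probes that can bind other transcripts. Another 2 of the 4 Hspa8 probe sets were above the bound. The lower of them, without that suffix, read 2955 and 3723.6, and the remaining one of the 4 read 53.7 and 32.8. Hspa14, which works at the ribosome together with Dnajc2, read 282 and 329.5.

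Hspa1a and Hspa1b encode the major stress-inducible Hsp70 from nearly identical copies. The probe set of Hspa1a read 19.7 and 15.8. The 3 probe sets of Hspa1b read from 17 to 50.5, and the highest, at 48.6 and 50.5, lay just under the bound on both arrays. With the bound at the 90th percentile of the same off-tissue genes, 42.2 and 36.5, Hspa1b was called, and Hspa1a was not. Which copy each probe set binds was not examined, so the genes are given as uncertain relative to each other. Hspa1l, the testis form that lies next to Hspa1a in the RefSeq gene order, read 5.5 and 1.3. Hspa2, another form known from male germ cells, read 32.7 and 41.4, and neither was above background.

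How alike the inducible copies are can be seen upstream of their starts. The 250 bases before the start of Hspa1a (RefSeq, GRCm38.p6, chr17:34972157-34972406, minus strand) are printed 5′ to 3′ to show the stretch that the copies share, with a match to GAANNTTC, a 2-unit heat shock element, in capitals.
Hspa1a: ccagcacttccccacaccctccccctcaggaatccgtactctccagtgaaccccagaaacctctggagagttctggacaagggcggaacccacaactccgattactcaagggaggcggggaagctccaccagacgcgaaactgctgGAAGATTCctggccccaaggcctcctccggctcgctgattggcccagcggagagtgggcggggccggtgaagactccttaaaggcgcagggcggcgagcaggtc
Hspa1b has the same base at 247 of these 250 positions, and the 3 that differ, Hspa1a first and counted from 1 at the 5′ end, are C44T, T47C and T249G. The capitals are the same in both copies.

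The organelle forms of Hsp70 were all above background. Hspa5, known as BiP, the Hsp70 of the ER lumen and the sensor partner of the unfolded protein response, read 2107.5 and 1881.1 (1994 ± 160, SD, n = 2), and its 3 probe sets were all above the bound. Hspa9, known as mortalin, which drives protein import into mitochondria, read 533.8 and 528.5, with 3 of 5 probe sets above. Hspa13, a microsomal form, read 87.9 and 64.8 and so lay near the bound on set 2, which here means at most 25% above it or 20% below it. It was not called with the bound from the second off-tissue list.

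The Hsp110 genes, whose products release ADP from Hsp70, were all called. Hspa4 read 406.8 and 462.4, Hspa4l 124.1 and 130.9, and Hsph1 259.2 and 217. Both probe sets of Hsph1 were above the bound, against 2 of 4 for Hspa4 and 3 of 5 for Hspa4l. The divergent Hsp70 genes were not. Hspa12a read 16.4 and 18.5 at its highest of 4 probe sets, and Hspa12b, known from endothelium, read 14 and 2.8.

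Hsp60 and its lid were above background on every probe set. Hspd1, which encodes Hsp60, read 1449 and 1442.2 (1446 ± 4.81, SD, n = 2). Hspe1, which encodes the Hsp10 lid, read 2265.4 and 2207.6 (2237 ± 40.9, SD, n = 2), and its other probe set read 742.1 and 752.7. The arrays were close for both genes. They are neighbours in the RefSeq gene order and run away from each other, with 216 bases between the start of Hspe1 and 1 of the 2 starts that the table gives for Hspd1.

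All 8 genes of the usual CCT ring were called. Tcp1, the alpha subunit, read 1863.8 and 1769, and Cct2, the beta subunit, read 3035.4 and 2911.3. For Cct3 the values were 1434.8 and 1421.6, for Cct4 1895.1 and 1872.5, and for Cct5 1368.1 and 1282. Cct6a read 1544.8 and 1784, Cct7 815.5 and 802, and Cct8 926.3 and 1062.5. Every subunit therefore lay far from the bound on both arrays, and each stayed above background under every bound, level and single-array setting tried. The exceptions within the family were Cct6b, the testis form of the zeta subunit, at 2.9 and 2.4, and the Cct8-like gene Cct8l1 at 3.1 and 5.3. Not every probe set followed. Of 7 each, 5 were above the bound for Cct3 and for Cct4, and the second of 2 for Cct8 read 0.5 and 6.5.

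Small heat shock proteins bind unfolding proteins without using ATP. Of the 8 measured genes grouped here by an Hspb symbol, 2 were called. Hspb11, known as Ift25 and a part of the ciliary transport machinery, was grouped here by its symbol alone. It read 265.9 and 252.3, with a second probe set at 11.9 and 8.4. Hspb1, the widely expressed Hsp27 homologue, read 95.7 and 118 on one probe set and 3.8 and 2.3 on the other, so its call rested on 1 of 2 at an intensity near that of Pomc. It was lost with the median probe set as the level. Hspb8, a partner of Bag3 in selective autophagy, read 45 and 43.1 and was not above background. Nor were the muscle genes Hspb2 (24.9 and 8.3), Hspb3 (28.4 and 25.9) and Hspb6 (24.7 and 9.4), the heart gene Hspb7 (19.3 and 35.8) or the testis gene Hspb9 (14.3 and 14.8).

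**Figure D2:**
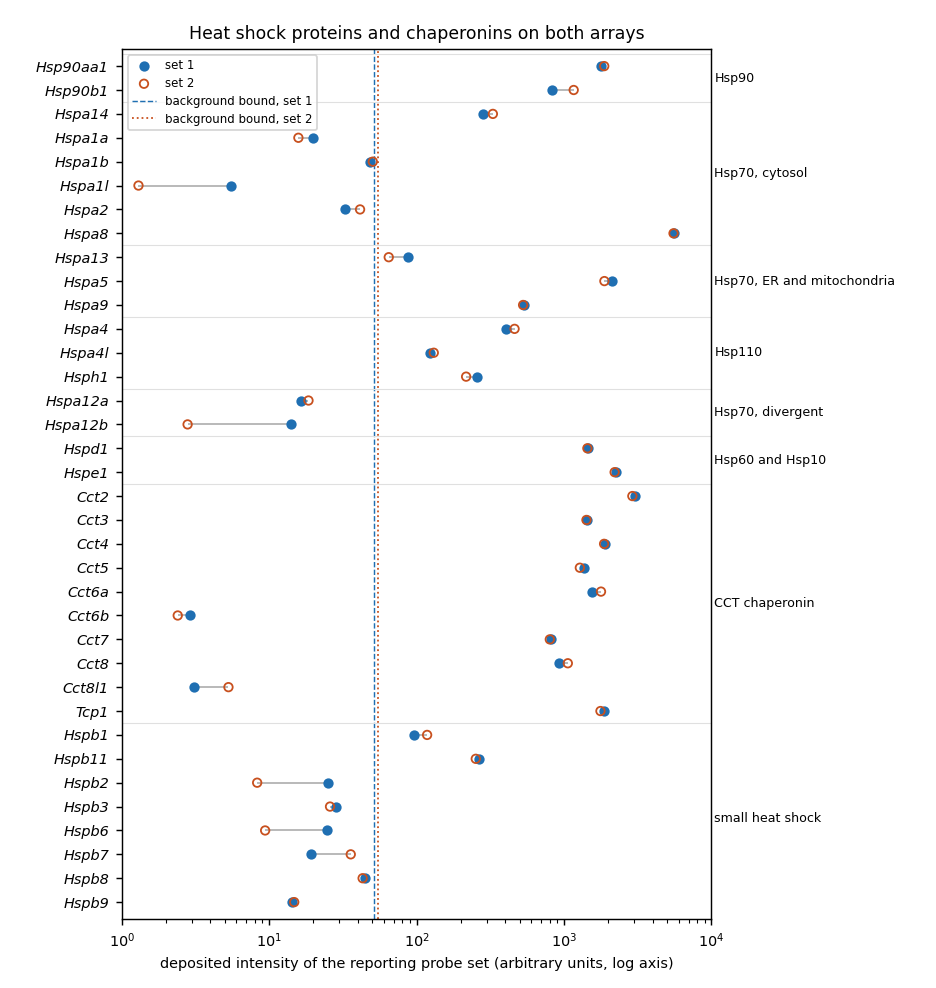
Deposited intensity of the reporting probe set of each heat shock protein and chaperonin gene on set 1 (filled) and set 2 (open), on a log axis in arbitrary units, with the background bounds as vertical lines. Hspa8 lies at 5604.3 and 5538.4, and Hspa1b at 48.6 and 50.5 lies just left of the bounds.

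Of 44 measured DNAJ genes 31 were above background, with 20 of 27 in the Dnajc class. Class A members resemble the bacterial DnaJ and serve as general partners of Hsp70, and 3 of 4 were called. Dnaja1 read 1159.9 and 1237.7, and Dnaja2 read 1543.9 and 1384.1. Dnaja3, the mitochondrial form known as Tid1, read 137.6 and 157. Dnaja4 read 51 and 40.9, under the bound on both arrays.

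In the cytosolic Dnajb list 5 of 9 genes were called. Dnajb1, the classical Hsp40 and a known target of heat shock factor 1, read 592 and 619.1 and was above the bound on both probe sets. Dnajb6, which keeps aggregation-prone proteins soluble, read 794.6 and 731.9. The other 3 calls were near the bound. They were Dnajb4 at 79.4 and 59.7, Dnajb5 at 53.5 and 92.7 and Dnajb13, a sperm flagellum gene with a single probe set, at 53.4 and 62.6. All 3 were lost with the bound from the second off-tissue list. Dnajb2, known from neurons, read 54.4 and 49.4 and Dnajb8 62.5 and 34.9, so each exceeded the bound on set 1 alone. The testis genes Dnajb3 (8.2 and 12.8) and Dnajb7 (14.5 and 19.5) were below it on both arrays.

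DNAJ proteins of the ER bring clients to BiP or to degradation, and 8 of 10 were called. Dnajc3, known as p58IPK, which also restrains the kinase PERK, read 454.4 and 442.7, and all 5 of its probe sets were above the bound. Dnajb9 (ERdj4) read 404 and 360.6, Dnajc10 (the disulfide reductase ERdj5) 327.1 and 310.6, and Dnajc1 (ERdj1) 315.2 and 310.5. Dnajb11 (ERdj3) read 230.4 and 231.7, Dnajb12 151.7 and 187, and Dnajc18 110.6 and 105.1. Dnajc16, at 70.9 and 63.8, was near the bound on set 2 and was lost with the second off-tissue list. Dnajc25 read 67.1 and 52.9 and passed on set 1 alone, and Dnajb14, a partner of Dnajb12 in degradation at the ER membrane, read 39.3 and 36.8.

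In the mitochondrial Dnajc list 4 of 5 genes were called. Dnajc15, known as MCJ, a protein of the inner membrane that restrains respiration, read 1538 and 1524 (1531 ± 9.90, SD, n = 2) on its only probe set. Dnajc11, a partner of the cristae-organising complex, read 166.3 and 163.3, Dnajc4 153.2 and 152.8 and Dnajc30 122 and 126.9. For Dnajc11 2 of 4 probe sets were above the bound, and it was not called with the median probe set as the level. Dnajc28 read 34.7 and 54.2 and was not above background.

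The 5 genes of the nuclear and ribosomal list were all called. Dnajc8, a splicing-associated protein, read 1198.1 and 1096.4, and Dnajc9, a co-chaperone of histones, 681.1 and 698.9. Dnajc2, the ribosome-bound partner of Hspa14, read 281.4 and 303, and Dnajc21, which acts in assembly of the large ribosomal subunit, 111.9 and 112.9. Dnajc17 read 644.7 and 739.8 on one probe set, while its other 2 read 27.8 and 33.9 and 3 and 1.9, so its call rested on 1 of 3. With the median probe set as the level, Dnajc17 and Dnajc21 were not called. Both called probe sets of Dnajc2 end in _s_at, which marks probes that several transcripts can share, and without such probe sets it was not called.

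Among the vesicle genes 2 of 5 were called. Dnajc5, the cysteine string protein that keeps exocytosis SNAREs folded, read 577.2 and 561.3, and all 5 of its probe sets were above the bound. Dnajc13, known as RME-8 and active on endosomes, read 244.8 and 284.6. The restricted cysteine string protein genes Dnajc5b (45 and 39.7) and Dnajc5g (26.6 and 12.3) were not above background, nor was Dnajc6, the neuronal auxilin that works with Hspa8 on clathrin, at 38.3 and 6.3.

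Of the remaining Dnajc genes 4 of 6 were called. Dnajc7, which carries clients between Hsp70 and Hsp90, read 738.5 and 887.9, and Dnajc14 read 309.1 and 289.7 with all 3 probe sets above the bound. Dnajc12, a partner of aromatic amino acid hydroxylases, read 92.9 and 123.9. Dnajc24, needed to make diphthamide, read 91.3 and 74.9 and was lost with the second off-tissue list. Dnajc22 read 15.2 and 19.6, Dnajc27 27.5 and 41.3, and neither was called.

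**Figure D3:**
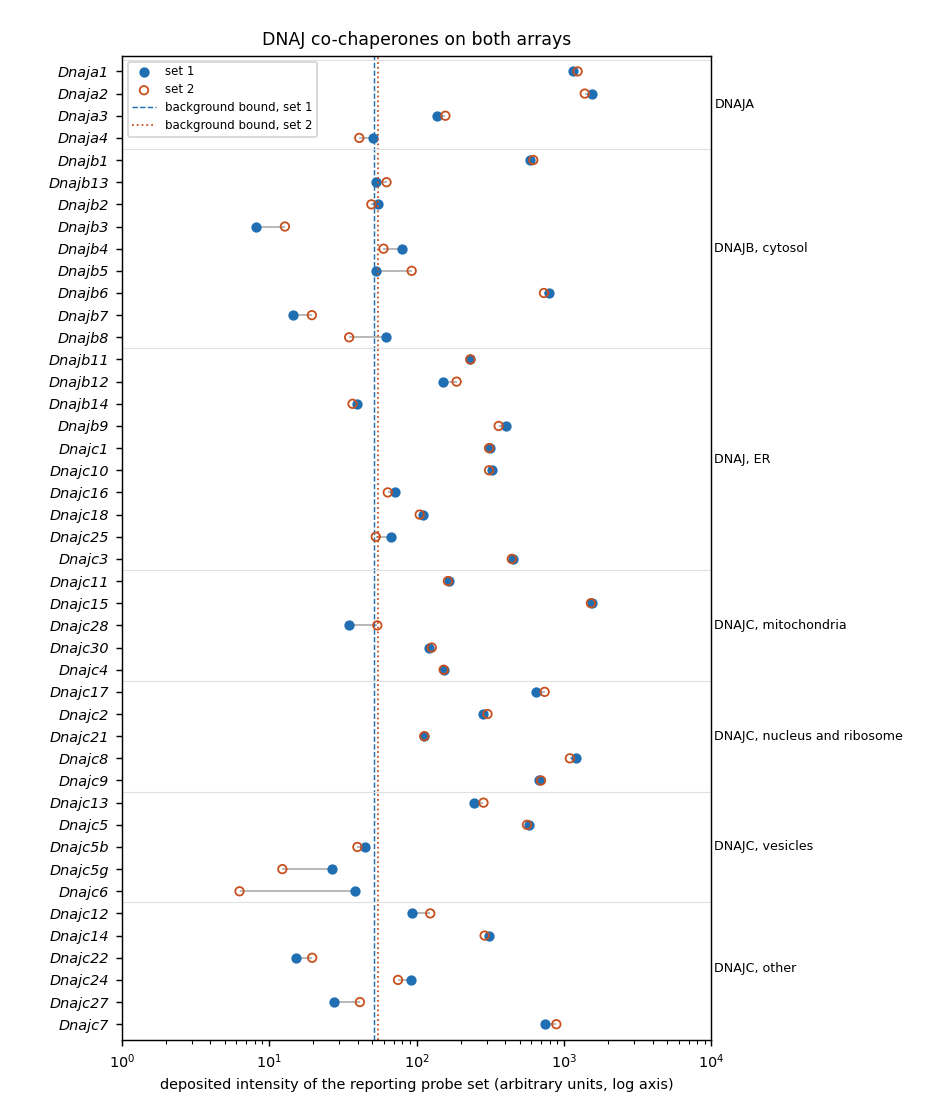
Deposited intensity of the reporting probe set of each DNAJ gene on set 1 (filled) and set 2 (open), on a log axis in arbitrary units, with the background bounds as vertical lines. Dnajb5, Dnajb13 and Dnajb2 lie beside the bounds, and Dnajc15, at 1538 and 1524, lies far to their right.

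On at least 1 array, 13 of the 80 genes lay near the bound, and 5 of these were above it on both. The called ones were Hspa13, Dnajb4, Dnajb5, Dnajb13 and Dnajc16. Hspa1b, Hspb8, Dnaja4, Dnajb2, Dnajb8, Dnajc25, Dnajc28 and Dnajc5b were not called. For these genes the call says little about the presence of the transcript. Hspa13 had a second probe set above the bound on both arrays, at 69.2 and 81.7.

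The probe sets of a gene often disagreed. Of the 41 called genes with several probe sets, 15 had all of them above the bound (36.6%) and 26 had part (63.4%). Over all named genes those shares were 37.6% and 62.4%, so the group was near the background here.

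**Figure D4:**
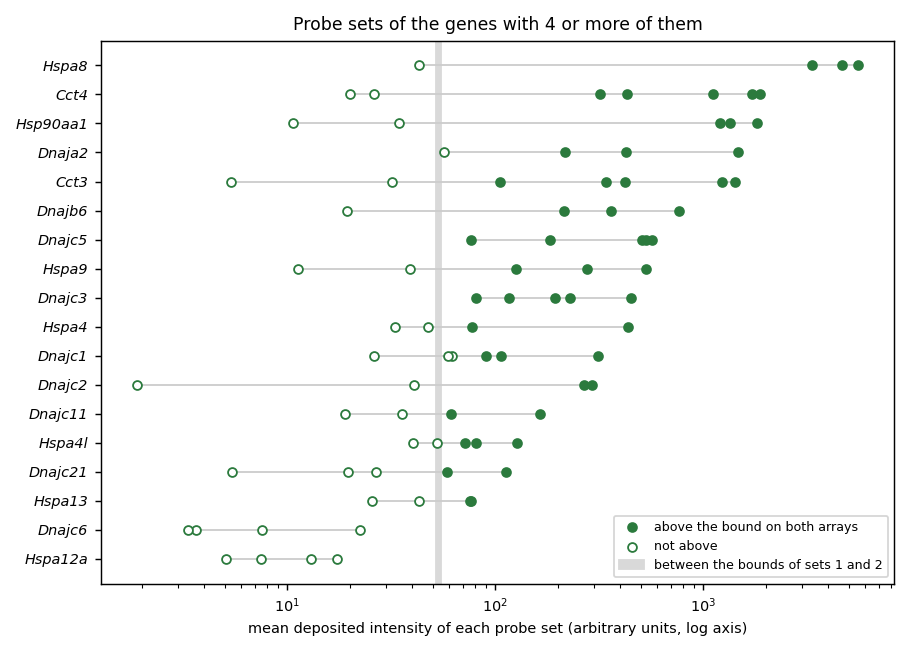
Mean intensity of each probe set (log axis, arbitrary units) for the genes with 4 or more of them, filled where the probe set was above the bound on both arrays and open where it was not. All 5 probe sets of Dnajc3 and of Dnajc5 are filled, none of Hspa12a or Dnajc6 is, and the other genes hold both kinds.

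The symbol rule did not read the sequence before the start sites. Many members are nevertheless named for heat shock or known from stress responses. The shares of stress elements below are therefore not independent of the choice of members. RefSeq promoter windows of GRCm38.p6, 250 bases before to 50 after a start, were given for 66 of the 80 genes, in 85 windows. Of these 66 genes, 42 were above background. The 3-unit heat shock element GAANNTTCNNGAA, with its other strand TTCNNGAANNTTC, is a form of the site of heat shock factors. It was found in 6 of the 85 windows (7.06%), against 0.603% of all 32851 windows. The windows belonged to Hspd1, Hspe1, Hsph1 and Dnajb6, all 4 above background. A window of Hspd1 and one of Hspe1 share 285 bases and the same match. The 6 windows therefore hold fewer than 6 separate sites, and the share of windows counts some sites more than once. The shorter GAANNTTC, or TTCNNGAA, which is part of every 3-unit match, was in 22 of the 85 windows (25.9%, against 15.1% of all). It occurred in 20 genes, of which 11 were above background. The ER stress element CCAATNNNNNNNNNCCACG, on either strand, was in 3 of the 85 windows (3.53%, against 0.119% of all), those of Hspa5, Hsp90b1 and Dnajc3, and all 3 genes were above background. These are matches of letters and not measured binding sites.

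The stretches that hold these matches before a start are printed 5′ to 3′ on the strand of the gene, from RefSeq windows of GRCm38.p6, with the match in capitals. The first was taken for Hspe1 and is shared with a window of Hspd1, which runs the other way, and its overlapping pair of 3-unit matches forms a single run of capitals. In the first Hsph1 window with a match, no match ends before the start, so none is printed.
Hspe1, chr1:55088029-55088106, plus strand: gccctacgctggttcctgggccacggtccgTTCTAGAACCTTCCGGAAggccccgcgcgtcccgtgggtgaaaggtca
Dnajb6, chr5:29735822-29735894, plus strand: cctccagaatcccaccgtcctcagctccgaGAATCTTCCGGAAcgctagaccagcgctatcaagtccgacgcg
Hspa5, chr2:34771995-34772073, plus strand: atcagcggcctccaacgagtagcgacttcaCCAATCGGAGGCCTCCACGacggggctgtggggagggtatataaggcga
Dnajc3, chr14:118937797-118937875, plus strand: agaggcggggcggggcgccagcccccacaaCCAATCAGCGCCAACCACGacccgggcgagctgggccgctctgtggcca
Hsp90b1, chr10:86705503-86705686, minus strand: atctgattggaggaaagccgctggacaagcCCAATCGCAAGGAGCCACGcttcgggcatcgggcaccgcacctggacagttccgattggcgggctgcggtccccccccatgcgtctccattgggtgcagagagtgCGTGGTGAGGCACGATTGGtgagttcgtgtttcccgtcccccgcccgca
Hsp90b1 holds a match on each strand. The other 4 genes printed have their matches in a single run of capitals.

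The partners and regulators of the chaperones were read from lists that are not part of the group. Of 57 measured genes 51 were above background (89.5%), against 47.9% of all named genes. These lists, too, were chosen with earlier results of these data known. Of the Hsp90 co-chaperones 13 of 14 were called, among them Cdc37, which brings kinases to Hsp90, at 1117.5 and 1078.2, Sugt1 at 846.8 and 866.9 and Cdc37l1 at 727.6 and 722.5. Unc45b, the muscle myosin chaperone, was not, at 1.1 and 0.5. In a list of Hsp70 partners, which holds exchange factors, ligase partners and the co-chaperone St13 (Hip), 13 of 14 were called. Among them were St13 at 948.6 and 904.6, Bag1 at 418 and 344.2 and the mitochondrial Grpel1 at 389 and 360.3. The exception was Bag3, a stress-inducible exchange factor, at 37.2 and 57.3, which exceeded the bound on set 2 alone.

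All 8 prefoldin and phosducin-like genes, which hand actin and tubulin to CCT or assist it, were above background, with Pfdn5 at 1640.2 and 1667.7, Vbp1 at 878.1 and 875.4 and Pdcl3 at 537.4 and 551.8. So were all 16 genes of ER folding and the unfolded protein response, with Calr at 1529 and 1645.8, Canx at 1305 and 1450.2 and Pdia3 at 1308.2 and 1331.6. Of the heat shock factor list 1 of 5 was called, Hsbp1, a binder of heat shock factor 1, at 375.9 and 385.8. Hsf2 (40.4 and 43.3), Hsf2bp (32.7 and 38.5) and Hsf4 (35.1 and 42.5) were not above background, and Hsf1 was not analysed here. On set 2 alone the count was 2, with Hsf5 at 48.5 and 56.1, a gene named after its values were seen.

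Between the arrays the group's probe sets above background differed little. Over the 109 probe sets the centred log2 difference, set 2 minus set 1, had a median of 0.03 and an SD of 0.23, against 0 and 0.24 for all 17374 probe sets above background. More than 1.5-fold higher on set 2 were 4 of the 109 (2.00% of all probe sets above background), and lower were 0 (0.915% of all). Those 4 were probe sets of Dnaja1 (265 and 482.3, log2 difference 0.84), Dnajb5 (53.5 and 92.7, 0.77), Hspa14 (99 and 160.6, 0.67) and Cct4 (248 and 390.5, 0.63). In Dnaja1, Hspa14 and Cct4 the reporting probe set lay within 1.5-fold, so the difference was not shared by all probe sets of the gene. In Dnajb5 the other probe sets, not above background, read 42.3 and 65.7 and 27.5 and 30.2. The lowest on set 2 were probe sets of Hspa13 (87.9 and 64.8, −0.47), Cct3 (120.2 and 90.1, −0.44) and Dnajb4 (79.4 and 59.7, −0.44). The spread narrowed with intensity, from an SD of 0.26 for the 42 probe sets with a mean between 64 and 256 to 0.17 for the 25 with a mean of 1024 or more. No p-value is given, since 2 arrays of 1 group allow no test.

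**Figure D5:**
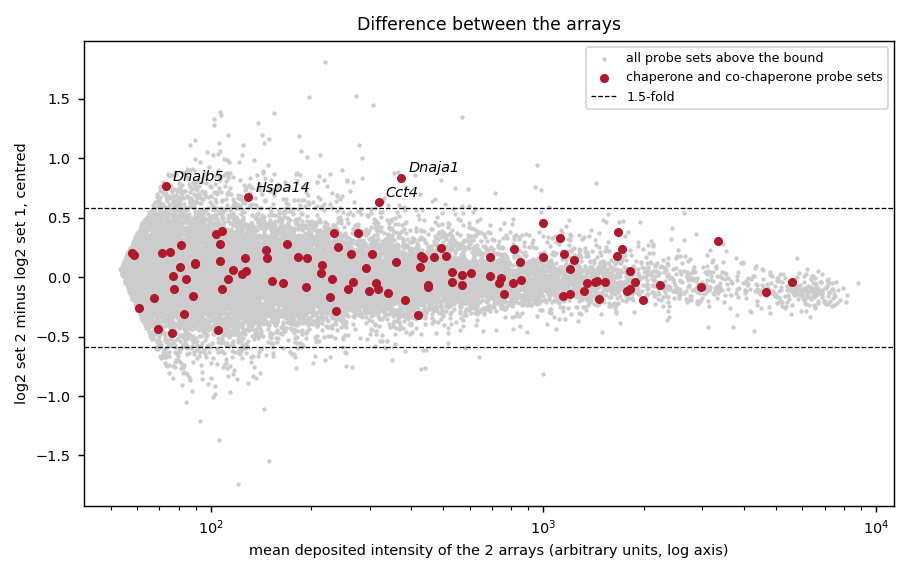
Centred log2 difference between the arrays (vertical axis, set 2 minus set 1) against mean intensity (log axis, arbitrary units) for all probe sets above background (grey) and those of the group (red). The 4 named red points lie above the upper 1.5-fold line and none lies below the lower one.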

How the data were processed

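RNA of 5cc7 T cell blasts was measured on 2 Affymetrix mouse 430 2.0 arrays. The deposited values are intensity values, read from the values themselves as linear and never negative. How the authors corrected, summarised and scaled them is not given in the sources used here. GEO's platform annotation named the probe sets. Entrez identifiers matched all 80 member genes to the RefSeq table of GRCm38.p6, with 0 symbols changed. No test was possible with 1 group, so the values are described without p-values. The self-test on simulated arrays checked the code for the calls and the differences. Its present probe sets lay well above background and varied less between arrays than the data, so calls near the bound were not checked. Intensities under 1 were set to 1 before log2, and log2 differences were centred on their median (0.03) over probe sets above background.

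Every gene of the Hsp90, Hsp70, Hsp110, Hsp60, Hsp10, chaperonin and small heat shock families was named. Of each DNAJ list, up to the 4 with the highest intensity above background and all genes not above were named. Dnajb11, Dnajb12, Dnajc18 and Dnajc21 were added after their values were seen. Of each pathway list, 3 above and up to 3 not above in alphabetical order were named. Members near the bound and the 3 probe sets most raised and most lowered on set 2 were also named. Members and lists were chosen with earlier results of these data known. Alternatives covered the bound, the gene level, the probe sets used, each array alone, centring, quantile normalization, the floor and the fold limit. The calculations used Python 3.11.15, numpy 2.4.6 and pandas 2.3.3.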

Additional observations from a re-analysis of the deposited data

How the results depend on the processing

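The share of all named genes above background under the same setting is given in brackets. The 53 chaperone and co-chaperone genes above background (47.9%) became 59 with the bound at the 90th percentile of the off-tissue genes (53.8%). The count was also 59 with the bound at each array's median over all probe sets (55.4%). It was 47 with the bound from the second off-tissue list (37.6%). With the bound at 2 times its value the count was 44 (35%), and with the median probe set as the level 45 (41.1%). Without _s_at and _x_at probe sets it was 50 (46.7%). With each array left out in turn it ran from 53 (50.4%) to 56 (50.7%). Of the 80 genes, 41 were above background under every bound, level and single-array setting, and 20 under none of the settings. The looser bounds each added Dnaja4, Dnajb2, Dnajc25, Dnajc5b, Hspa1b and Hspb8. The bound from the second off-tissue list lost Dnajb13, Dnajb4, Dnajb5, Dnajc16, Dnajc24 and Hspa13, and the bound at 2 times its value also lost Dnajc12, Dnajc18 and Hspb1. The median probe set lost Dnajb4, Dnajb5, Dnajc11, Dnajc16, Dnajc17, Dnajc21, Dnajc24 and Hspb1, and leaving out _s_at and _x_at probe sets lost Dnajb5, Dnajc2 and Dnajc24. Among the counts of single lists, 153 of 168 stayed within 1.5 times their value. The 15 that did not were counts of the small heat shock, cytosolic DNAJB, nuclear and ribosomal DNAJC, other DNAJC, heat shock factor and tissue-restricted lists. The number of probe sets past 1.5-fold between the arrays was 4 without centring, with quantile normalization and with a floor of 16. It was 6 with the 90th percentile bound, 46 of 196 (23.5%, against 29.2% of all probe sets) with no bound, and 0 past 2-fold. Of the group's called genes with several probe sets, 15 of 41 had every probe set above background. The count was 17 of 44 with the 90th percentile bound and 11 of 33 without _s_at and _x_at probe sets. No paired analysis was possible because there is 1 group. No difference between the arrays can be taken with an array left out. The number of arrays and the signal near background limit the precision: among the group's probe sets not above background the SD of the log2 difference was 0.91, against 0.23 above it.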

Other observations

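Affymetrix marks probe sets that several transcripts can share with the suffix _s_at, those with probes that can bind other transcripts with _x_at, and those that match alternative transcripts of 1 gene with _a_at. Of the chaperone and co-chaperone probe sets, 20 ended in _s_at, of which 16 were above background, and 17 ended in _x_at, of which 11 were. Of 32 that ended in _a_at, 24 were above background, and of the 127 with the plain suffix, 58 were (45.7%). The same shares over all probe sets were 57.2% for _s_at, 51.8% for _x_at, 59.2% for _a_at and 34.1% for the plain suffix. The levels given for Hspa8, Cct2 and Cct3 came from _x_at probe sets, and those for Dnaja2 and Hspe1 from _s_at probe sets. These genes stayed called without _s_at and _x_at probe sets, but their levels may include other transcripts.

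Genes with more probe sets had more chances to be called. Of the chaperone and co-chaperone genes with 1 probe set, 12 of 29 were above background (41.4%), against 32.6% of all genes with 1 probe set. With 2 probe sets 14 of 18 were (77.8%, against 55.8%), with 3 it was 11 of 15 (73.3%, against 68.0%), and with 4 or more 16 of 18 (88.9%, against 76.9%).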
